A study of Mus musculus with 15 samples.

Results

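Astrocytes respond to injury, inflammation and age by changing shape and by raising a shared set of transcripts, and 10 of these genes were followed here: Gfap, Vim, Serpina3n, Cd44, Aspg, Osmr, S1pr3, Cd109, Steap4 and Lcn2. They were chosen by name, as genes known to rise in reactive astrocytes, and all 10 were matched by symbol among the 22524 gene identifiers of the count tables. RNA was sequenced from the brain cortex of 15 female mice of the C57BL/6 strain at 18 months of age. In 7 of them 1 copy of Rps9, which encodes a small-subunit ribosomal protein, carried the D95N substitution (asparagine in place of aspartate at position 95), and the other copy was unaltered. The 8 controls were wild-type littermates. The comparison asks how these genes differ between the cortex of mutant and wild-type mice at this age. Libraries are named by genotype and animal number, and each stands for 1 animal.

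As background, reactive astrocytes fill their processes with intermediate filaments, of which GFAP is the defining one. Ligands of the gp130 receptor family such as oncostatin M, leukaemia inhibitory factor and interleukin 6 act through JAK kinases on the transcription factor STAT3, which drives Gfap and several other genes of the set. Inflammatory signals from microglia act in part through NF-kB.

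Total counts ran from 23349381 to 34052037 in D95N and from 28007441 to 34587082 in wild type. The means were 2.90e+07 ± 3.92e+06 (SD, n = 7) and 3.15e+07 ± 2.07e+06 (SD, n = 8). A difference between these means was not detected (two-sided exact permutation test, p = 0.14). The tissue field of the labels names skeletal muscle, while the series design names cortex. Summed over their marker lists, 8 neuronal genes stood at 7224 to 9066 CPM (read counts divided by a scaled library size, so that libraries of unequal depth can be compared) and 20 homeostatic astrocyte genes at 10333 to 12149 CPM per library, against 7.24 to 31.8 CPM for 8 skeletal muscle genes. Of 14989 genes tested with edgeR's quasi-likelihood test, 4016 (26.8%) passed an adjusted p of 0.05, 2272 of them (15.2%) higher in D95N and 1744 (11.6%) lower. That split depended on scaling: with library totals 1808 genes were higher and 2536 lower, and with upper-quartile factors 1926 and 2351. RNA of a whole piece of tissue was measured, so a change in the number of cells of a type cannot be told apart from a change in RNA per cell.

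Of the 10 reactive genes, 7 rose in D95N: Gfap, Vim, Serpina3n, Cd44, Aspg, Osmr and Cd109. That is 7 of 10 against 15.2% of all tested genes, and the median log2 fold change was 0.58 against -0.01 over all tested genes. The genes had been picked with earlier results of these data known, so the count is a description of them. Serpina3n, Cd44 and Aspg rose by at least 2-fold, a size reached by 1.31% of tested genes. S1pr3, Steap4 and Lcn2 did not pass the test. No gene of the set was called lower by edgeR, DESeq2 or limma-voom, and 1, Lcn2, was lower at an unadjusted p under 0.05 in edgeR.

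**Figure D1:**
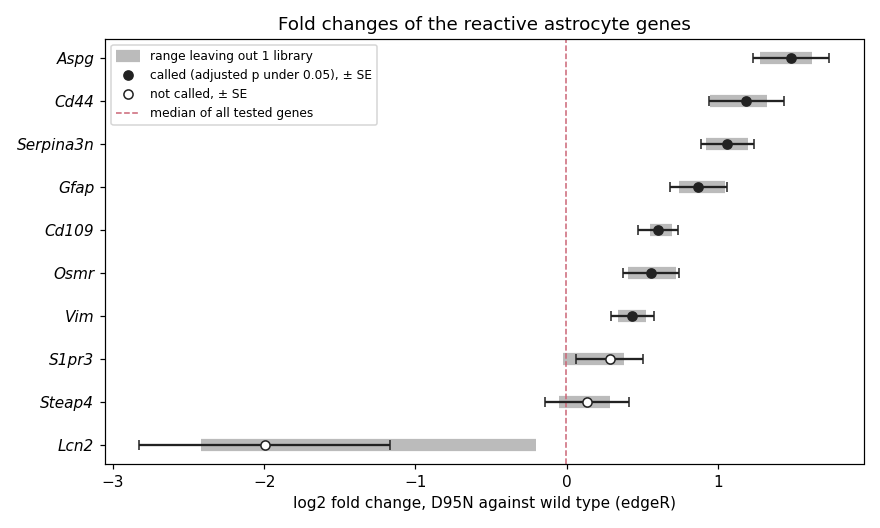
Log2 fold change of each reactive astrocyte gene, 7 D95N against 8 wild-type libraries (edgeR). Points with bars are the value ± 1 SE (filled where called), grey bands span the values with each library left out in turn, and the dashed line is the median of all tested genes. The 7 called genes lie between 0.43 (Vim) and 1.48 (Aspg), and the band of Lcn2 runs from -2.42 to -0.21.

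Promoters of 3 of the genes are shown because Gfap and Serpina3n both rose, whereas Steap4 holds the same STAT letters as Gfap and did not pass the test. Each is read 5′ to 3′ on the strand of the gene from RefSeq's table for GRCm38.p6, from 250 bases before the RefSeq transcription start to 30 bases after it, and capitals mark motif matches. The windows are chr11:102897171-102897450 (minus strand) for Gfap, chr12:104406458-104406737 (plus strand) for Serpina3n and chr5:7960222-7960501 (plus strand) for Steap4.
Gfap: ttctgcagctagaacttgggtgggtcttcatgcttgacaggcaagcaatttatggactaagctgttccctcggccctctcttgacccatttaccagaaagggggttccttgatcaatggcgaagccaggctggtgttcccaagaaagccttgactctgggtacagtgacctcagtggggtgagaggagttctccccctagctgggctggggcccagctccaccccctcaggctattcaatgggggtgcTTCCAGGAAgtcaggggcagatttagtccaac
Serpina3n: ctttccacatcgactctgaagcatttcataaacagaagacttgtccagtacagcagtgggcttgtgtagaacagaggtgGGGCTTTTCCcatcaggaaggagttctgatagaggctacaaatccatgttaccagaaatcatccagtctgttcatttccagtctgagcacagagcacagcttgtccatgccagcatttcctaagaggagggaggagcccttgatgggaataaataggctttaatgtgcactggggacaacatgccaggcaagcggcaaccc
Steap4: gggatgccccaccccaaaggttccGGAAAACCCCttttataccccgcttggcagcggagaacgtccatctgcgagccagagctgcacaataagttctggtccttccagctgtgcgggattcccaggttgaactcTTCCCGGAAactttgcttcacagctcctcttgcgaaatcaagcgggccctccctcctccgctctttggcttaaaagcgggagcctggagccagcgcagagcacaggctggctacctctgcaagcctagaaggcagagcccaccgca
The table holds promoters for 9 of the 10 genes, all but Cd109. In windows of 300 bases (50 after the start), searched on both strands, the STAT letters TTCNNNGAA occurred in 2 of 9, Gfap (TTCCAGGAA, from position -2 to 7) and Steap4 (TTCCCGGAA, from -116 to -108), against 8.30% of 32851 promoters. The NF-kB letters (GGG, then any 2 bases, then TTTCC) occurred in 3 of 9, against 1.63% of all promoters: Vim, Serpina3n (GGGCTTTTCC, from -171 to -162) and Steap4 (GGAAAACCCC on the strand shown, from -226 to -217). The AP-1 letters TGANTCA occurred in 1 of 9, Osmr, against 7.81%. None of these matches overlapped another. A match is a stretch of letters, and no binding was measured.

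Gfap (ENSMUSG00000020932, chromosome 11, 102887336 to 102900912, minus strand of GRCm38) encodes the main intermediate filament of mature astrocytes. In D95N it stood at 732 CPM in animal 4, 612 in animal 21, 573 in animal 28, 704.2 in animal 41, 432 in animal 42, 1071 in animal 44 and 862 in animal 50. In wild type it stood at 348 CPM in animal 8, 329 in animal 11, 324 in animal 16, 385 in animal 19, 704.1 in animal 24, 298 in animal 30, 391 in animal 32 and 344 in animal 43. Every D95N library lay above 7 of the 8 wild-type libraries, and wild-type 24 lay within the D95N range. The wild-type mean was 390.4 ± 130 CPM (SD, n = 8) and the D95N mean 712 ± 208 (SD, n = 7). The rise was 1.82-fold, or 0.87 ± 0.19 (SE) on the log2 scale, and passed edgeR's test (adjusted p = 0.00332).

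Vim (ENSMUSG00000026728, chromosome 2, 13573927 to 13582826, plus strand) encodes vimentin, which co-assembles with GFAP and is also made by endothelial, mural and meningeal cells. It ranged from 50.4 CPM (animal 42) through a median of 71.4 to 103 (animal 50) in D95N and from 43.9 through 49.9 to 76.8 (animal 24) in wild type. The groups overlapped widely, with 2 of 7 D95N libraries above all wild-type ones. Vim rose 1.35-fold (log2 fold change 0.43 ± 0.14 SE, edgeR, adjusted p = 0.031). The call was lost on leaving out any 1 of 7 libraries (D95N 44 or 50, or wild-type 11, 16, 19, 30 or 43), with adjusted p up to 0.0738 and log2 fold changes of 0.34 to 0.52 over all 15 omissions.

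**Figure D2:**
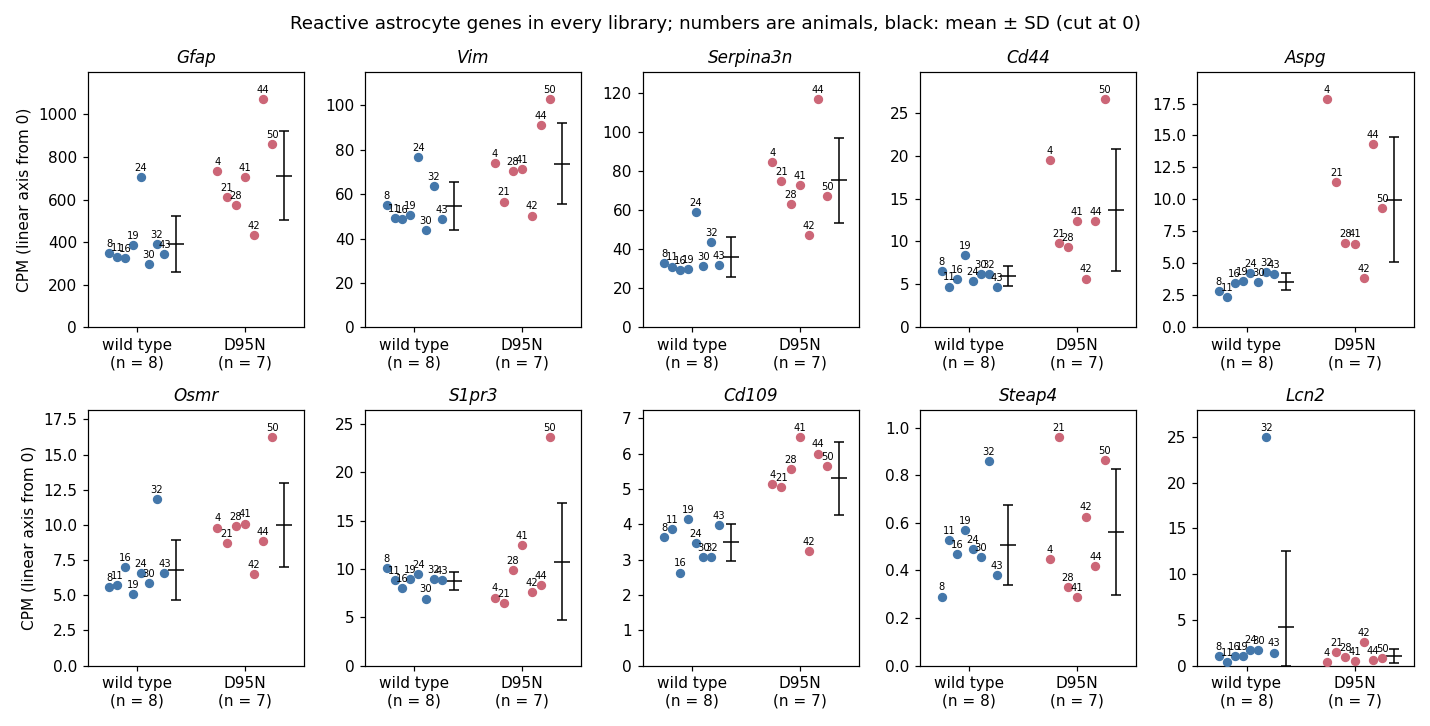
CPM (linear axis from 0) of each reactive astrocyte gene in every library, labelled by animal number, for wild type (blue, n = 8) and D95N (red, n = 7), with black marks for the mean ± SD (lower bars end at 0). The genotypes overlap in at least 1 library for all 10 genes, and wild-type 32 stands at 25.0 CPM for Lcn2.

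Serpina3n (ENSMUSG00000021091, chromosome 12, 104406729 to 104414329, plus strand) encodes a secreted inhibitor of serine proteases. Its D95N libraries ran from 47.1 CPM (animal 42) through a median of 72.8 to 117 (animal 44), and the wild-type ones from 29.4 through 31.5 to 59.2 (animal 24). All D95N libraries but animal 42 lay above every wild-type library. The means of 75.3 ± 21.7 (SD, n = 7) and 36.2 ± 10.4 CPM (SD, n = 8) differed 2.08-fold (log2 fold change 1.06 ± 0.18 SE, edgeR, adjusted p = 0.000664). Serpina3n has near-identical neighbours in the Serpina3 cluster, and the sources used here do not give how reads shared between them were counted, which leaves its level uncertain. Of these neighbours, Serpina3g stood at 1.67 CPM in D95N and 1.38 in wild type and was not called (edgeR, adjusted p = 0.386).

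Lcn2 (ENSMUSG00000026822, chromosome 2, 32384633 to 32388252, minus strand) encodes lipocalin 2, a secreted carrier of iron-binding siderophores that neutrophils also hold. It ranged from 0.352 CPM (animal 4) through a median of 0.82 to 2.61 (animal 42) in D95N. In wild type it ranged from 0.352 (animal 11) through a median of 1.25 to 25.0 (animal 32), and the wild-type library next below animal 32 stood at 1.75 CPM. Animal 32 held 812 Lcn2 reads, against 10 to 75 in the other 14 libraries. The fitted log2 fold change of -1.997 ± 0.83 (SE) missed the threshold (edgeR, adjusted p = 0.0817). Without wild-type 32 it was -0.21 (adjusted p = 0.735), and DESeq2 gave -0.18 (adjusted p = 0.761). Without D95N 42, the library of highest Lcn2 in its group, it was -2.42 and passed (adjusted p = 0.0475). The summed level of 9 neutrophil markers was also highest in wild-type 32, at 34.0 CPM. The 4 of them that could be tested were called lower in D95N, against 11.6% of all tested genes. Wild-type 11, 16, 30 and 43 had sums of 0.88, 2.38, 1.67 and 2.10 CPM, against 1.04 to 3.91 in D95N, so that fall rests on the other wild-type libraries. Elsewhere, wild-type 24 had a neutrophil sum of 10.2 CPM with Lcn2 at 1.75, the level next below animal 32 in wild type. Wild-type 19 and 8 had sums of 11.1 and 7.83 CPM with Lcn2 at 1.05 and 1.03. D95N 42 had the second-highest Lcn2 level with a sum of 1.04 CPM. The part of neutrophils in the Lcn2 value was not tested.

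Cd44 (ENSMUSG00000005087, chromosome 2, 102811141 to 102901665, minus strand) encodes a surface receptor for hyaluronan and osteopontin. It stood at 19.5 CPM in D95N 4, 9.77 in 21, 9.34 in 28, 12.4 in 41, 5.68 in 42, 12.3 in 44 and 26.6 in 50, and between 4.64 and 8.44 CPM in the wild-type libraries. All D95N libraries but animal 42 were above every wild-type one, and animals 50 and 4 were well above the rest. Means of 13.7 ± 7.09 (SD, n = 7) and 5.98 ± 1.21 CPM (SD, n = 8) gave a 2.27-fold rise (log2 fold change 1.19 ± 0.25 SE, edgeR, adjusted p = 0.00256). Without D95N 50 the log2 fold change was 0.95, still called.

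Osmr (ENSMUSG00000022146, chromosome 15, 6813577 to 6874969, minus strand) encodes the oncostatin M receptor subunit that pairs with gp130. It ranged from 6.48 CPM (animal 42) through a median of 9.81 to 16.2 (animal 50) in D95N, and from 5.07 through 6.20 to 11.9 (animal 32) in wild type. Only D95N 50 lay above all wild-type libraries. Osmr rose 1.47-fold (log2 fold change 0.56 ± 0.18 SE, edgeR, adjusted p = 0.034). The call was lost on leaving out any 1 of 8 libraries. Without wild-type 8, 11, 16, 19, 24, 30 or 43 the log2 fold change stayed between 0.51 and 0.56 (adjusted p of 0.0505 to 0.0639), and without D95N 50 it was 0.40 (adjusted p = 0.0821). Without wild-type 32 it was 0.72 and called.

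S1pr3 (ENSMUSG00000067586, chromosome 13, 51408639 to 51422797, plus strand) encodes a receptor for sphingosine 1-phosphate. It ranged from 6.43 CPM through a median of 8.31 to 23.6 (animal 50) in D95N and from 6.93 through 8.91 to 10.1 in wild type. Apart from animals 50 and 41, the D95N libraries lay within or below the wild-type range. S1pr3 was not called, at 0.28 ± 0.22 (SE) on the log2 scale (edgeR, adjusted p = 0.359) and -0.03 without D95N 50 (adjusted p = 0.911), so its sign rested on that library. The exons of S1pr3 share 45 bases with a long non-coding RNA on the opposite strand, Gm32834, and no strand setting is given in the sources used here.

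Cd109 (ENSMUSG00000046186, chromosome 9, 78615546 to 78716253, plus strand) encodes a membrane-anchored protein that binds TGF-beta and dampens its signalling. It ranged from 3.24 CPM (animal 42) through a median of 5.55 to 6.46 (animal 41) in D95N and from 2.63 through 3.56 to 4.16 in wild type. All D95N libraries but animal 42 lay above every wild-type one. Cd109 rose 1.52-fold (log2 fold change 0.60 ± 0.13 SE, edgeR, adjusted p = 0.0032), with 0.55 to 0.70 over the omissions of 1 library.

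Aspg (ENSMUSG00000037686, chromosome 12, 112106679 to 112127559, plus strand) encodes an asparaginase with lysophospholipase activity. It stood at 17.8 CPM in D95N 4, 11.3 in 21, 6.58 in 28, 6.55 in 41, 3.86 in 42, 14.3 in 44 and 9.36 in 50, and between 2.39 and 4.33 CPM in the wild-type libraries. All D95N libraries but animal 42 were above the wild-type range, and they spread from 6.55 to 17.8 CPM among themselves. Aspg had the largest rise of the 7 called genes, 2.79-fold (9.98 ± 4.89, SD, n = 7, against 3.58 ± 0.686 CPM, SD, n = 8). On the log2 scale the rise was 1.48 ± 0.25 (SE; edgeR, adjusted p = 0.000769), and 1.28 without D95N 4.

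Steap4 (ENSMUSG00000012428, chromosome 5, 7960457 to 7982213, plus strand) encodes a metalloreductase that reduces iron and copper. It was the lowest of the set, with 8 to 28 reads per library, or 0.288 to 0.959 CPM in D95N and 0.290 to 0.860 in wild type. D95N 21 and 50 lay above the highest wild-type library, and the other 5 D95N libraries lay within or just below the wild-type range. A difference was not detectable at this depth (log2 fold change 0.13 ± 0.28 SE, edgeR, adjusted p = 0.75), and without D95N 21 the value was -0.05 (adjusted p = 0.916).

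Levels between genes were compared as CPM per kilobase of exon, taken as the wild-type mean. Gfap was the most abundant at 92.6, followed by Serpina3n at 17.5, Vim at 11.5, S1pr3 at 1.96, Lcn2 at 1.59, Aspg at 1.02, Cd44 at 0.883, Osmr at 0.56, Cd109 at 0.505 and Steap4 at 0.16 CPM per kilobase. Neighbours whose wild-type ranges on this per-kilobase scale overlapped were Serpina3n and Vim, S1pr3 and Lcn2, Lcn2 and Aspg, Aspg and Cd44, Cd44 and Osmr, and Osmr and Cd109. The place of Lcn2 rests on wild-type 32. Gfap stood above Serpina3n, Vim above S1pr3 and Cd109 above Steap4 in every wild-type library.

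Animals of 1 genotype differed in how many of the genes were high. D95N 50 was above all wild-type libraries for 9 of the 10 genes, D95N 41 and 44 for 6, D95N 4 and 21 for 5, and D95N 28 for 4. Over all tested genes this held for 27.2% in D95N 50, 19.8% in D95N 41, 26.3% in D95N 44, 27.3% in D95N 4, 28.5% in D95N 21, 30.3% in D95N 28 and 16.2% in D95N 42. D95N 42 lay within the wild-type range for all 10 genes and was the lowest D95N library for 7 of them. Over all tested genes, 67.3% of the values of D95N 42 lay within the wild-type range, against 38.8% to 60.4% in the other D95N libraries. As the median log2 ratio to the wild-type median over the 10 genes, D95N 50 stood at 1.21, D95N 44 at 0.81, D95N 41 at 0.78, D95N 28 at 0.65, D95N 21 and 4 at 0.61 and D95N 42 at 0.09. Different animals led for different genes: animal 44 for Gfap and Serpina3n, animal 50 for Vim, Cd44, Osmr and S1pr3, animal 4 for Aspg, and animal 41 for Cd109. The log2 SD was larger in D95N than in wild type for 9 of the 10 genes (all but Lcn2), as it was for 83.1% of all tested genes.

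**Figure D3:**
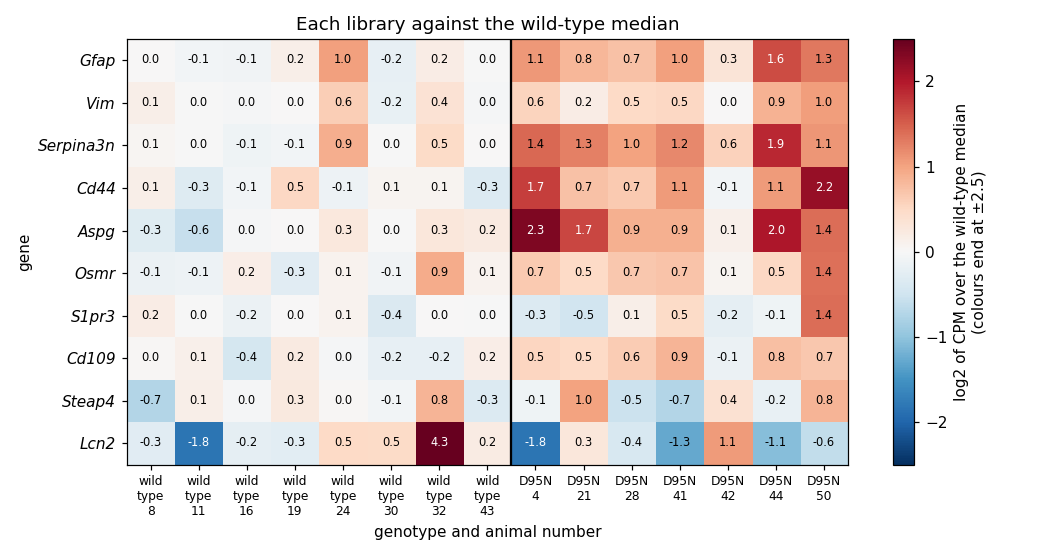
Log2 ratio of CPM to the wild-type median of the same gene, with genes in rows and the 15 libraries in columns, wild type on the left and D95N on the right. Red is above and blue below the wild-type median, with colours ending at 2.5 in either direction. D95N 50 is above all wild-type libraries for 9 genes and D95N 42 for none.

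Within a genotype, Gfap and Vim varied together, with Pearson's r of 0.91 (Spearman's rho 0.905) over the 8 wild-type libraries and 0.883 (rho 0.929) over the 7 D95N libraries, on log2 CPM. Of the 18 relations computed (9 genes in 2 genotypes), the wild-type one of Gfap and Vim was the single one whose r passed adjustment (exact permutation test, two-sided, p = 0.00144, Benjamini-Hochberg adjusted 0.0259; for rho, adjusted 0.0607). Without wild-type 24 and 30, the libraries farthest from the Gfap median, its r was 0.68 (exact p = 0.0986), so it rests in part on those animals. Gfap and Serpina3n gave r of 0.905 in wild type and 0.873 in D95N (exact permutation tests, adjusted p = 0.0821 in both). These fell to 0.615 and 0.207 without the 2 farthest libraries. Cd44 followed Gfap with r of 0.721 in D95N and -0.01 in wild type, neither past adjustment (exact permutation tests), and the difference between genotypes was not tested. Without the 2 farthest libraries of each genotype these were 0.956 and 0.687, so the wild-type value rests on those animals.

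**Figure D4:**
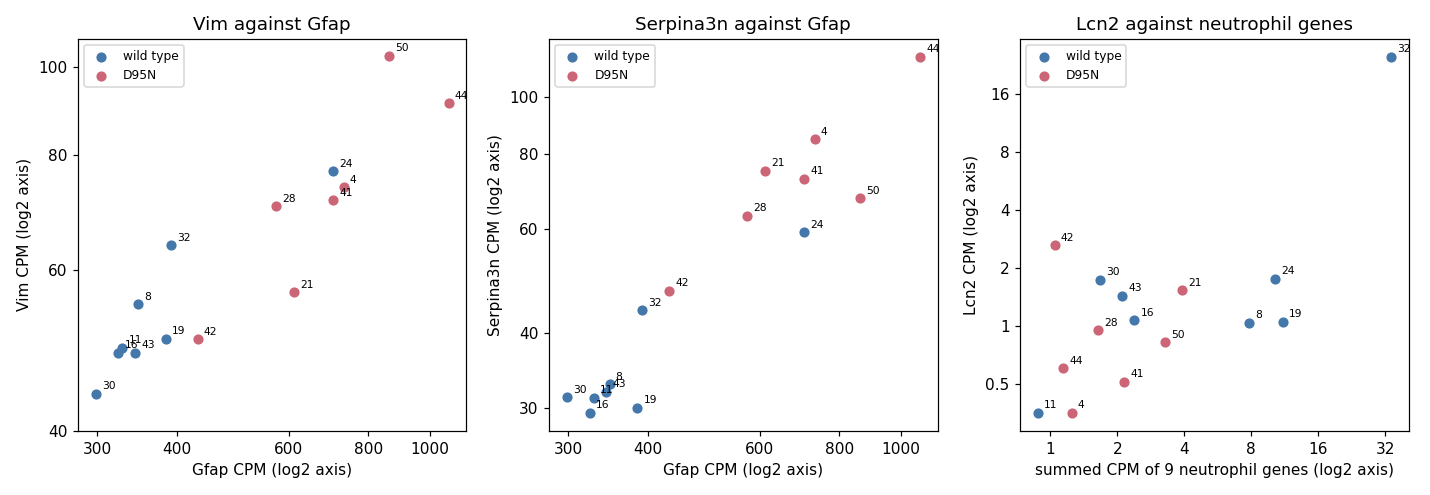
Vim and Serpina3n against Gfap, and Lcn2 against the summed CPM of 9 neutrophil marker genes, all as CPM on log2 axes, with 1 point per library coloured by genotype and labelled by animal number. Wild-type 24 lies among the D95N libraries in the plot of Vim, and wild-type 32 is highest on both axes of the Lcn2 plot, at 34.0 and 25.0 CPM.

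The other genes of the shared reactive set were read from lists chosen around these genes, each beside the 15.2% higher and 11.6% lower of all tested genes. Of 13 pan-reactive genes, 8 rose and 1 fell (median log2 fold change 0.59), and the list holds 9 of the 10 genes above. Its 4 further genes were mixed. Hspb1, a small heat shock protein, rose 1.51-fold (edgeR, adjusted p = 0.0475), and Cxcl10, a chemokine induced by interferon, rose 1.78-fold (adjusted p = 0.0457). Cp, the ferroxidase ceruloplasmin, fell to 0.719 of its wild-type level (adjusted p = 0.00698), while Timp1, an inhibitor of metalloproteases, did not pass the test (log2 fold change 0.90, adjusted p = 0.139). The calls of Hspb1 and Cxcl10 are near the threshold. The count of pan-reactive genes that rose was 4 to 7 with 1 library left out, falling to 5 without D95N 44 or wild-type 43 and to 4 without D95N 50 or wild-type 11, 16, 19 or 30. Those 4 were Gfap, Serpina3n, Cd44 and Aspg, which were called in every such fit.

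Genes assigned in mouse to the A1 state (induced by microglial cytokines) and the A2 state (induced by ischaemia) were read separately. Of 13 tested A1 genes, 1 rose and 2 fell (median log2 fold change -0.12). The 23.1% of A1 genes called in either direction is near the 26.8% of all tested genes. Ggta1, a galactosyltransferase, rose 1.21-fold (edgeR, adjusted p = 0.0453), Srgn, the proteoglycan serglycin, fell to 0.817 (adjusted p = 0.0375), and Iigp1, an interferon-induced GTPase, fell to 0.563 of wild type (adjusted p = 0.042). These 3 calls are near the threshold, and the list held 0 to 1 higher and 0 to 2 lower calls over the omissions of 1 library. Of 9 tested A2 genes, 3 rose and none was called lower by edgeR, DESeq2 or limma-voom (0 at an unadjusted p under 0.05; median log2 fold change 0.15). They were Cd109, Ptgs2, the inducible cyclooxygenase, at 4.06-fold (adjusted p = 0.0014), and Sphk1, a kinase that makes sphingosine 1-phosphate, at 1.62-fold (adjusted p = 0.0272). The difference between the A1 and A2 lists was not tested. RNA of whole tissue was measured, so the cell type in which these A1 and A2 genes changed is not known.

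Around Osmr, the list of gp130 ligands, receptors and STAT3 signalling had 7 of 19 tested genes higher and none called lower by edgeR, DESeq2 or limma-voom (0 at an unadjusted p under 0.05; median log2 fold change 0.11). Jak1, the kinase bound to gp130, rose 1.21-fold from 196 to 237 CPM (edgeR, adjusted p = 0.000904). Stat3 rose 1.21-fold from 61.2 to 74.0 CPM (adjusted p = 0.000947). The median rise over all 2272 genes called higher was also 1.21-fold. Socs1, a feedback inhibitor of JAK kinases, rose 2.09-fold from 0.605 to 1.27 CPM (adjusted p = 0.00139). The other 4 that rose were Osmr itself, the ligand gene Lif at 2.88-fold (0.598 to 1.75 CPM, adjusted p = 0.00685), its receptor gene Lifr at 1.22-fold (adjusted p = 0.00354) and Socs3, induced by STAT3, at 1.83-fold (adjusted p = 0.0307). Il6st, which encodes gp130, did not pass the test (log2 fold change -0.07, adjusted p = 0.21). Osm, the ligand of the Osmr product, was too low to be tested, at 0.160 CPM in D95N and 0.194 in wild type.

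Of 14 intermediate filament and linker genes, 7 rose and 3 fell (median log2 fold change 0.18). Beside Gfap and Vim these included genes of neurons and of most cells. Nefh, the heavy neurofilament subunit, rose 1.31-fold (edgeR, adjusted p = 0.000112), the linker Plec 1.41-fold (adjusted p = 0.000183) and Ina, the neuronal filament alpha-internexin, 1.18-fold (adjusted p = 0.000443). In each of these 3, all 7 D95N libraries stood above all 8 wild-type ones, which held for 1.81% of tested genes and for none of the 10 reactive genes. Nes, the progenitor filament that reactive astrocytes can re-express, rose 1.91-fold (adjusted p = 0.0212).

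Around S1pr3, 5 of 13 sphingosine 1-phosphate genes rose and 4 fell (median log2 fold change 0.16). Plpp3, a lipid phosphatase abundant in astrocytes, fell to 0.82 of wild type (edgeR, adjusted p = 0.000577). Sgpl1, the lyase that breaks down sphingosine 1-phosphate, rose 1.18-fold (adjusted p = 0.000751). The receptor gene S1pr2 rose 1.80-fold from 2.53 to 4.56 CPM (adjusted p = 0.00239), and S1pr1 fell to 0.872 (adjusted p = 0.0306). Around Cd44, 2 of 14 genes of its ligands and of hyaluronan rose and 1 fell (median log2 fold change -0.06). They were Cd44, the hyaluronan-binding proteoglycan gene Vcan at 1.25-fold (adjusted p = 0.0156), and Cemip, which degrades hyaluronan, at 0.816 of wild type (adjusted p = 0.0114). The 21.4% of this list called in either direction is near the 26.8% of all tested genes. Spp1, which encodes osteopontin, did not pass the test (log2 fold change -0.28, adjusted p = 0.186).

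Around Cd109, 5 of 14 TGF-beta pathway genes rose and 1 fell (median log2 fold change 0.13). Tgfb1, the ligand gene, rose 2.27-fold from 6.66 to 15.2 CPM (edgeR, adjusted p = 0.00111). Tgfb3 rose 1.25-fold (adjusted p = 0.00179), and Skil, a repressor of SMAD proteins, rose 1.51-fold (adjusted p = 0.00219). Around Lcn2 and Steap4, 2 of 14 iron genes rose and 2 fell (median log2 fold change -0.06). The 28.6% of iron genes called in either direction is near the 26.8% of all tested genes. Tfrc, the transferrin receptor, rose 1.47-fold with all 7 D95N libraries above wild type (adjusted p = 0.000634). Such a separation upwards held for 1.81% of tested genes. Cp and Heph, ferroxidases that help iron leave cells, stood at 0.719 and 0.742 of wild type (adjusted p = 0.00698 and 0.0246). Slc22a17, a receptor for the Lcn2 product, did not pass the test at 640 and 621 CPM (adjusted p = 0.59).

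Of 8 tested genes for triggers of reactivity, 1 rose, Tgfb1, and 1 fell, Csf1, a growth factor for microglia, to 0.885 of wild type (edgeR, adjusted p = 0.00439). The 25% called in either direction is near the 26.8% of all tested genes. C1qa, a complement component from microglia, did not pass the test (adjusted p = 0.926).

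**Figure D5:**
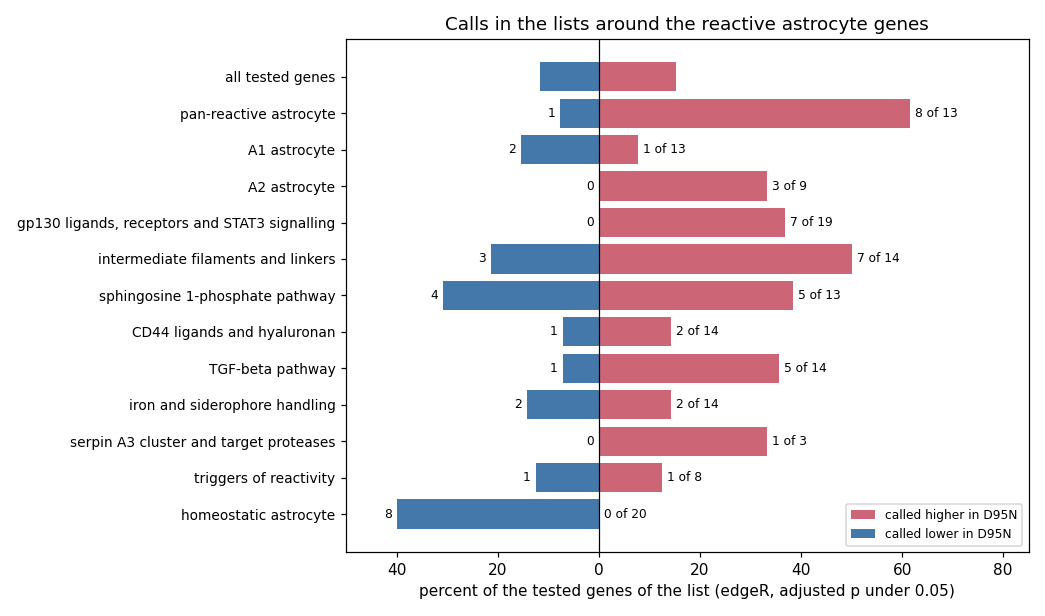
Share of the tested genes of each list that were called higher (red, right) or lower (blue, left) in D95N, in percent, with the number of genes at each bar and all tested genes at the top. The pan-reactive list has 8 of 13 genes called higher, and the homeostatic astrocyte list has 8 of 20 called lower.

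Genes of homeostatic astrocytes did not rise with the reactive ones. Of 20, 8 fell and none was called higher by edgeR, DESeq2 or limma-voom (0 at an unadjusted p under 0.05; median log2 fold change -0.10). The glutamate transporter gene Slc1a3 fell to 0.857 of wild type with all 7 D95N libraries below wild type (edgeR, adjusted p = 0.000765). Such a separation downwards held for 1.47% of tested genes. The bicarbonate transporter gene Slc4a4 fell to 0.838 (adjusted p = 0.00253) and the gap junction gene Gja1 to 0.786 (adjusted p = 0.00395). Aldh1l1, a marker of most astrocytes, did not pass the test (adjusted p = 0.867). The summed level of the 20 genes was 10333 to 11526 CPM in D95N and 11326 to 12149 CPM in wild type.

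Vim, Cd44, Osmr, S1pr3 and Cd109 are also made by vascular, meningeal or immune cells, whose markers were read beside them. Over all tested genes, 15.2% were called higher and 11.6% lower. The 10% of markers called for microglia and for choroid plexus and ependyma is below both shares. Of 10 meningeal fibroblast markers 5 fell in D95N, with sums of 147 to 227 CPM in D95N and 216 to 271 in wild type. Of 9 mural markers 4 fell (194 to 281 against 225 to 266 CPM), and of 8 endothelial markers 2 fell (219 to 309 against 244 to 363 CPM). Of 10 microglial markers 1 rose (355 to 506 against 441 to 517 CPM), and of 9 tested markers of disease-associated microglia 2 rose and 2 fell (141 to 160 against 155 to 168 CPM). Of 6 red cell markers 5 fell (36.2 to 149 against 74.3 to 288 CPM). Markers of striatum, a neighbouring region, moved as well, 5 of 9 being lower in D95N (742 to 1347 against 860 to 1285 CPM). Of 8 hippocampal markers 1 rose and 2 fell (631 to 973 against 614 to 746 CPM), and the median sum was 851 against 649 CPM. The lowest D95N sum (631) was in D95N 42 and the highest wild-type sum (746) in wild-type 24. These animals also had the lowest D95N and the highest wild-type Gfap, at 432 and 704 CPM. D95N 28, with the highest sum (973), had Gfap at 573 CPM, and D95N 44, with the highest Gfap (1071 CPM), had a sum of 791. Of 8 neuronal markers 4 rose and 1 fell (7224 to 9066 against 7366 to 7945 CPM). Of 10 choroid plexus and ependyma markers 1 fell (220 to 1174 against 299 to 1102 CPM). Their sum was 1174 CPM in D95N 4 and 1131 in D95N 50, the libraries of highest Cd44, against 220 to 503 in the other D95N libraries. Wild-type 8, at 1102 CPM of these markers, had Cd44 at 6.54 CPM, below only wild-type 19 (8.44 CPM) in its group. The part of these cell types and regions in the changes of the reactive genes was not tested.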

How the data were processed

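RNA sequencing counts were read for 15 cortex libraries, 7 D95N (heterozygous) and 8 wild-type, grouped by the genotype labels. The deposited values are raw counts per Ensembl gene, 1 table per library, made by the authors with STAR and featureCounts on GRCm38, per the submitters' processing notes. Not given in the sources used here are tool versions, annotation, strand setting and the treatment of reads with several matches. RNA came from frozen tissue by Trizol extraction and went into standard Illumina libraries, per the labels' protocols. No batch, litter or date is given. Of 22524 identifiers, 22291 matched GENCODE M21 (GRCm38) and 233 did not.

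Genotypes were compared with edgeR 4.0.16 in R 4.3.3 (quasi-likelihood test on the deposited counts, TMM factors, default low-count filter, Benjamini-Hochberg adjustment over 14989 genes, calls under 0.05). The standard error is the absolute log2 fold change over the root of the F statistic. CPM were computed here from TMM-scaled library sizes, and log2 CPM used a prior count of 2. Exact permutation tests were two-sided. Alternatives were library totals, upper-quartile and RLE factors, no filter, a mean of at least 1 CPM, DESeq2 1.42.0, voom in limma 3.58.1, each library left out, and D95N 42 and wild-type 24 left out together. D95N 42 was the lowest D95N library and wild-type 24 the highest wild-type one for Gfap, Vim and Serpina3n. Leaving both out therefore favours a larger rise, and the Gfap log2 fold change went from 0.87 to 1.14.

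The members and lists were chosen with earlier results of these data known. Named genes were the 10 members, up to 3 called genes of smallest p per list (up to 2 by value where none passed) and the 5 genes most like Gfap. Hspb1, Cxcl10, Timp1, Lif, Lifr, Socs3, Il6st, Osm, Nes, S1pr1, Spp1, Slc22a17, C1qa, Serpina3g and Aldh1l1 were chosen after their values were seen. Markers were summed as CPM.

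On simulated counts (D95N against wild type, 14927 genes) the test made 8 false calls and recovered 42% of the genes given a 1.2-fold change, 80% of those given 1.5-fold, 92% of those given 2-fold and 100% of those given 3-fold. The simulation changed 50 genes at each fold and gave both genotypes the same spread. In the real counts 4016 genes were called, and the log2 SD was larger in D95N for 83.1% of tested genes. The simulated rates may therefore not hold for the real counts.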

Additional observations from a re-analysis of the deposited data

Results flagged for a closer look

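In 5 of the 20 groups of values (10 genes in 2 genotypes), 1 library stood apart from its group by more than Dixon's 95% critical value, which chance passes in about 1 group of 20. Gfap in wild-type 24 was 704 CPM, against 298 to 391 in the other 7 wild-type libraries. Osmr in D95N 50 was 16.2 CPM, against 6.48 to 10.1 in the other D95N libraries. Osmr in wild-type 32 was 11.9 CPM, against 5.07 to 7.00 in the other wild-type libraries. S1pr3 in D95N 50 was 23.6 CPM, against 6.43 to 12.5. Lcn2 in wild-type 32 was 25.0 CPM, against 0.352 to 1.75, in the library with the highest sum of neutrophil markers.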

How the results depend on the processing

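Gfap, Serpina3n, Cd44, Aspg and Cd109 were called higher in all 23 alternatives, with adjusted p up to 0.00817, 0.00202, 0.00845, 0.0042 and 0.00801. Of the 10 genes, 5 to 7 were called higher and 0 to 1 lower with 1 library left out. Over all tested genes these counts were 1952 to 2694 higher and 1305 to 2282 lower. The log2 fold change of S1pr3 ran from -0.025 (without D95N 50) to 0.38 (without D95N 21) and that of Steap4 from -0.049 (without D95N 21) to 0.29 (without wild-type 32), both changing sign. Without D95N 42 and wild-type 24 together, 1 reactive gene was lower (Lcn2, log2 fold change -2.53, adjusted p = 0.0462), as were 2 pan-reactive and 4 iron genes and 3 of the CD44 and hyaluronan list, and 1 iron and 1 homeostatic gene were higher. No A1 gene (0) was called higher with library totals, upper-quartile factors, no filter or limma-voom. With library totals 3 genes of the CD44 and hyaluronan list were lower and 1 iron gene higher, and with upper-quartile factors 2 and 1. Calls without 1 library ran from 4 to 7 higher and 1 to 2 lower (pan-reactive), 0 to 1 and 0 to 2 (A1), 6 to 8 and 1 to 3 (filaments), 3 to 5 and 2 to 4 (sphingosine 1-phosphate), 1 to 3 lower (CD44 and hyaluronan), 1 to 3 and 2 to 4 (iron), and 0 to 1 and 4 to 10 (homeostatic). The cause of these shifts was not tested. No analysis paired by litter was possible because no litter is given for the animals. Steap4 has 8 to 28 reads per library, and the Lcn2 value rests on wild-type 32. Steap4 was not tested with a mean of at least 1 CPM.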

Other observations

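The genes whose levels were most like that of Gfap were ranked by Pearson's r of log2 CPM centred within genotype over the 15 libraries, among 13819 genes. The first 5 were Tnfrsf19, a receptor of the tumour necrosis factor family (r = 0.911), Vim (0.89), Serpina3n (0.888), the kinase gene Map4k5 (0.874) and Dtl, a substrate receptor of a ubiquitin ligase (0.869). Tnfrsf19 and Map4k5 did not pass the test between genotypes (log2 fold changes 0.14 and 0.10), whereas Dtl rose (log2 fold change 0.55 ± 0.15 SE, edgeR, adjusted p = 0.0108). Other reactive genes ranked far lower, with Aspg 342nd (r = 0.606), Cd109 986th (0.488), Cd44 1088th (0.473) and Lcn2 8387th (-0.105).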
